A study of Mus musculus with 4 samples.

Results

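The sirtuins are a family of enzymes that remove acetyl and other acyl groups from lysines and consume NAD in the reaction. All 7 mouse sirtuin genes, Sirt1 to Sirt7, were taken by symbol from a table of 54838 gene rows, and all 7 were among the 15191 genes with enough reads to be tested. The family was chosen by the read counts of Sirt1, which differed between the lines compared, so that difference is described here without a test; the other 6 genes were taken by name. RNA sequencing was done on 2 libraries of the knock-in line MLC460 and 2 libraries of a wild-type (WT) line, called biological replicates in the study's design text. The cells of both lines are labelled E14 (E14Tg2a.4), an embryonic stem cell line of mouse strain 129/Ola, and were grown on gelatin in fetal bovine serum with leukemia inhibitory factor. MLC460 was edited with CRISPR/Cas9 so that its own p300 has mEGFP, a monomeric green fluorescent protein, fused to the N-terminus. Only 1 knock-in line was sampled, so a difference between the lines cannot be told apart from one that arose while that line was derived.

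Sirtuins act in different compartments. SIRT1, SIRT6 and SIRT7 are mainly nuclear, SIRT2 is mainly cytosolic, and SIRT3, SIRT4 and SIRT5 are mitochondrial. SIRT1 removes acetyl groups from histones, p53, FOXO factors and p300 itself, the acetyltransferase that was tagged in the knock-in line. In mouse embryonic stem cells SIRT1 is known as an abundant sirtuin that declines when the cells differentiate. Because the reaction needs NAD, sirtuin activity also depends on the enzymes that make and use NAD.

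The sequence before the Sirt1 start is shown because the family was chosen by Sirt1, and that of Sirt2 because its transcript level was close to the same in both lines. These are the 250 bases before the RefSeq start of each gene (GRCm38.p6), 5′ to 3′ on the gene's strand, at chr10:63339036-63339285 on the minus strand for Sirt1 and chr7:28766502-28766751 on the plus strand for Sirt2. Capitals mark the E-box CACGTG in Sirt1 and the GC box GGGCGG, here on the opposite strand, in Sirt2, while the GC boxes of Sirt1 are left in lower case.
Sirt1: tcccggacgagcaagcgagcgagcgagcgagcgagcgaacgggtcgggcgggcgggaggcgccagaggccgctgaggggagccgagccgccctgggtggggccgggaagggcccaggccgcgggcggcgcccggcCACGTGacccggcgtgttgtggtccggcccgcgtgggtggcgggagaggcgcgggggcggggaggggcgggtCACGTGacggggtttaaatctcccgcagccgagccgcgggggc
Sirt2: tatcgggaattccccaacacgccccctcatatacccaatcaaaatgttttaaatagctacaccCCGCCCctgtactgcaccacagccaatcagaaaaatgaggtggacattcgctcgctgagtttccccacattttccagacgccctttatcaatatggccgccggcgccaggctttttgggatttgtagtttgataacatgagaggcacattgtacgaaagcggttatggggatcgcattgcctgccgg
Both letter strings were searched on both strands, and CACGTG reads the same on each. Sirt1 had CACGTG at 2 places, with first bases at -115 and -43 relative to the start, and GGGCGG at 6 places. These motifs were chosen after the sequences were seen. CACGTG was found in 0 of the 8 windows of the other 6 genes, and in 6.02% of all 32817 windows of that length. GGGCGG was found in 32.7% of all windows. The Sirt1 window was 79.2% G and C, against 48.8% to 64.4% in the windows of the other sirtuins and a median of 52.4% over all windows. The RefSeq start of Sirt1 lies 42669 bases inside the GENCODE gene model, whose far end is used for the gene's coordinates and the distance to its neighbour Dnajc12. A match of letters is a description of the sequence and does not show that a factor binds there.

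Depth was 25266051 and 18946731 counts assigned to genes in knock-in 1 and 2, and 26553998 and 21791128 in WT 1 and 2. The transcript of the tagged gene, Ep300, had 181 and 210 CPM (counts scaled to library size, with trimmed mean of M-values factors) in the knock-in libraries, against 209 and 210 CPM in the WT libraries. Its groups overlapped (log2 fold change of knock-in over WT -0.10, SE 0.15, edgeR adjusted p = 0.804), and reads of tagged and untagged transcripts are counted together. All 8 markers listed for embryonic stem cells were tested, with summed levels of 6228 and 5868 CPM in knock-in and 5764 and 5701 CPM in WT libraries. Both knock-in values were above both WT values for 4 and below for 1, as for 23.4% and 23.9% of all genes. None passed in the fit on all libraries. With the GC offset explained below, Klf4 passed as higher (0.53, edgeR adjusted p = 0.0276), as did 0.711% of all genes. WT 2 stood apart from the other 3 libraries: its deviation from the mean of the libraries followed the GC content of the transcripts (Spearman rho = 0.67 across 15181 genes, which are not independent replicates), against -0.29 to -0.44 in the others. Mitochondrial transcripts took 1.04% and 1.08% of counts in the knock-in libraries, against 1.27% and 0.589% in WT 1 and 2, so WT 2 was also the lowest in that share, and the part of this in the results was not tested. Differences between the lines for the sirtuins and some other named genes are therefore also given with a GC offset. This is a fit in which each library's trend with GC content is taken out. The remaining differences are given without the offset only. TPM levels, their order and shares of the family are given without it.

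Relative levels were compared as TPM, in which counts are divided by the exon length of each gene and scaled to the same total in each library. Sirt1 and Sirt6 were the most abundant sirtuin transcripts, Sirt2 came next, Sirt7, Sirt3 and Sirt4 lay close together, and Sirt5 was the lowest. The 7 genes summed to 179.7 and 189.5 TPM in the knock-in libraries, against 158.2 and 144.5 TPM in the WT libraries. Without Sirt1 the sum was 89.5 and 95.1 TPM in knock-in libraries, against 95.5 and 110 TPM in WT libraries. Sirt1 alone made up 50.2% and 49.8% of the family's TPM in knock-in cells, against 39.6% and 24.0% in WT cells. In TPM the rest of the family added up to a similar or slightly smaller total in knock-in cells. The share of Sirt1 was the larger one in each knock-in library. These totals and shares hold no correction for the GC trend. In WT 2 that trend stood at -0.42 for Sirt1 and 0.26 for Sirt6 on the log2 scale. Under the GC offset 5 of the 6 other sirtuins had log2 fold changes above 0. The part of the trend in the totals and shares was not tested.

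**Figure D1:**
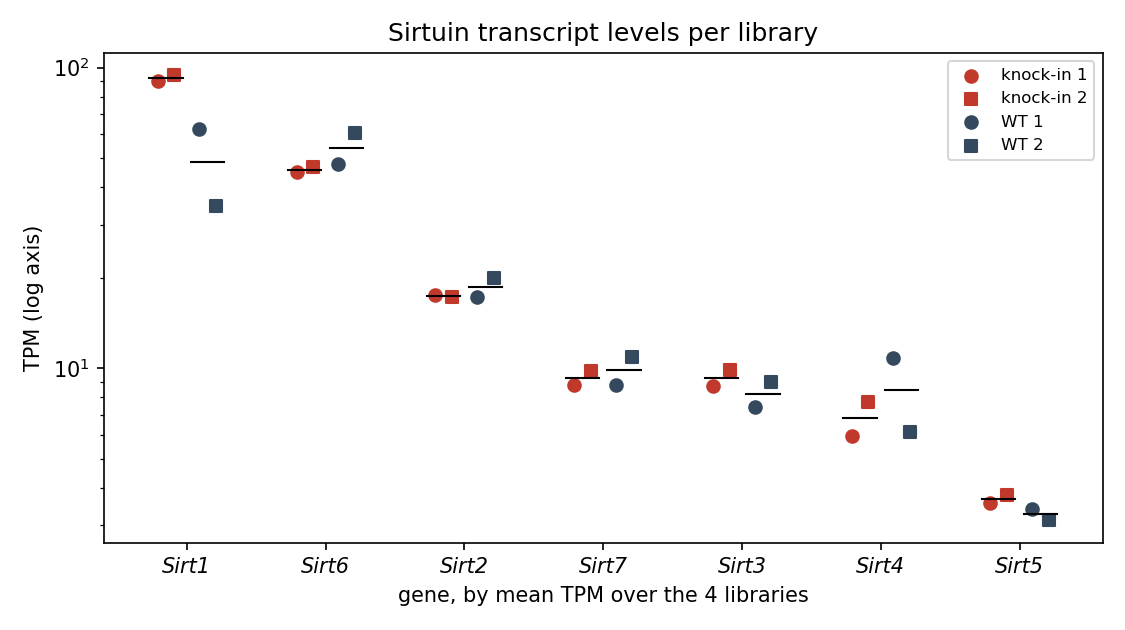
TPM on a log axis for each sirtuin gene in each library, with knock-in libraries (red) left of WT libraries (dark) and black lines for the mean of each pair. Sirt1 lies above 90 TPM in both knock-in libraries and at 62.7 and 34.7 TPM in the WT libraries, while for Sirt2 to Sirt7 the points of both lines overlap or nearly so, with Sirt4 spread from 5.95 to 10.8 TPM.

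Sirt1 encodes the nuclear deacetylase best known of the family (ENSMUSG00000020063, GRCm38 chromosome 10, 63319005 to 63381704, minus strand). It had 3708 and 2824 counts in the knock-in libraries, against 2641 and 1256 counts in the WT libraries. That is 152 and 151 CPM in knock-in and 95.9 and 57.0 CPM in WT cells. The knock-in libraries were nearly equal and both lay above both WT libraries, which differed between themselves by a factor of 1.68. The mean was 152 ± 0.75 CPM in knock-in and 76.5 ± 27.5 CPM in WT cells (SD, n = 2 each), a ratio of 1.98 and a log2 fold change of 0.99 (SE 0.23). Against WT 1 alone the knock-in mean was 1.58 times as high, and against WT 2 alone 2.66 times as high.

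The size of the Sirt1 difference thus depended on which WT library it was measured from. In the fit without WT 2 the log2 fold change was 0.65, and in the fit without WT 1 it was 1.41. Transcripts of Sirt1 have 42.0% G and C, below the 51.0% to 59.6% of the other 6 sirtuins, and at that GC content the fitted trend stood at 0.10 and 0.16 on the log2 scale in knock-in 1 and 2, against 0.15 and -0.42 in WT 1 and 2. After that trend was removed, Sirt1 stood at 7.15 and 7.08 log2 CPM in knock-in cells, against 6.43 and 6.25 log2 CPM in WT cells. The WT libraries then lay close together and still below both knock-in libraries, and the log2 fold change was 0.77 (SE 0.11).

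**Figure D2:**
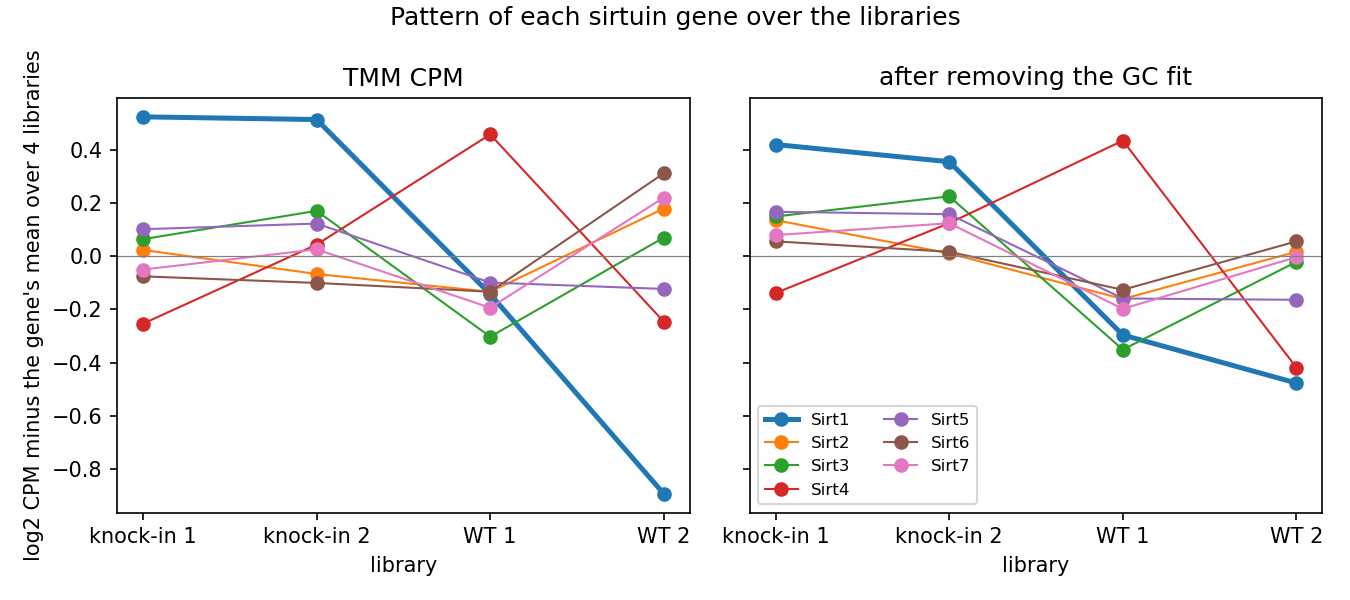
Log2 CPM of each sirtuin gene minus its own mean over the 4 libraries, as measured (left) and after the fitted GC trend of each library was removed (right); each line is 1 gene and each point 1 library. Sirt1 (thick line) is high in both knock-in libraries and lowest in WT 2, and its WT points move together in the right panel while those of Sirt4 stay apart.

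Sirt6, a nuclear deacetylase tied to DNA repair and glucose metabolism, is on the same chromosome (ENSMUSG00000034748, chromosome 10, 81621785 to 81627797). It had 45.0 and 46.6 TPM in knock-in cells, against 47.7 and 60.5 TPM in WT cells. Sirt1 exceeded Sirt6 in 3 of 4 libraries, but in WT 2 the order was turned, with 34.7 TPM for Sirt1 and 60.5 TPM for Sirt6. At their GC contents the fitted trend of WT 2 stood at -0.42 for Sirt1 and 0.26 for Sirt6 on the log2 scale. TPM holds no correction for that trend, and its part in this order was not tested. The TPM ranges of these neighbours in the order overlapped over the 4 libraries. In CPM, Sirt6 had 39.7 and 39.0 in knock-in cells, against 38.1 and 51.9 in WT cells, so both knock-in values lay between those of WT 1 and WT 2. Under the GC offset the log2 fold change of Sirt6 was 0.069, and with the offset and without WT 1 it was -0.019. The lower value found without WT 1, given below, was thus not kept under the offset. Without the offset the fitted difference on the log2 scale was -0.19 (95% interval -0.62 to 0.23, SE 0.19, edgeR adjusted p = 0.696). Without WT 1 it passed as lower (-0.40, edgeR adjusted p = 0.00609), in a fit where 32.1% of all genes passed, 13.1% as lower, and where the spread came from the knock-in pair, which varied less than the WT pair (chi-square per degree of freedom between the 2 libraries 5.71 in knock-in and 44.0 in WT). Without WT 2 the value was 0.032, and 0 of the 6 sirtuins other than Sirt1 passed, in a fit where 4.39% of all genes passed, 0.711% as higher and 3.68% as lower.

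Sirt7 encodes the nucleolar member, which acts at ribosomal RNA genes (ENSMUSG00000025138, chromosome 11, 120618372 to 120625240). It had 8.81 and 9.79 TPM in knock-in cells, against 8.80 and 10.9 TPM in WT cells. The groups overlapped, with a log2 fold change at -0.038 (95% interval -0.50 to 0.43, SE 0.21; edgeR adjusted p = 0.955). The value was 0.20 under the GC offset.

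Sirt2, the cytosolic tubulin deacetylase, is on chromosome 7 (ENSMUSG00000015149, 28766735 to 28788661). It had 17.5 and 17.3 TPM in knock-in cells, against 17.3 and 20.02 TPM in WT cells. These values did not overlap with those of Sirt6 above or Sirt7 below in any of the 4 libraries. The lines differed by -0.051 in log2 fold change (95% interval -0.46 to 0.36, SE 0.18; edgeR adjusted p = 0.931), or by 0.15 under the GC offset.

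Sirt3 encodes the main deacetylase of the mitochondrial matrix (ENSMUSG00000025486, chromosome 7, 140863666 to 140882309). It had 8.72 and 9.90 TPM in knock-in cells, against 7.46 and 9.004 TPM in WT cells. The groups overlapped in TPM and in CPM, with a log2 fold change at 0.22 (95% interval -0.23 to 0.68, SE 0.20; edgeR adjusted p = 0.671). Under the GC offset it was 0.37 (SE 0.15, 95% interval 0.047 to 0.69), an interval above 0 that did not pass over all genes (edgeR adjusted p = 0.215). With the GC offset and without WT 2, a fit added after the data were seen, it passed as higher (0.55, edgeR adjusted p = 0.0286), as did 2.03% of all genes, with 4.04% called in either direction.

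The value of Sirt3 also depended on how overlapping genes were counted. Its exons share 342 bases with Psmd13, a proteasome subunit gene, and 418 bases with Ric8a, both on the opposite strand, and a read that fits both genes is not given to either in the unstranded counts. Counted per strand, Sirt3 gained 131 and 101 reads in knock-in cells, against 160 and 176 reads in WT cells, which is 32.6% and 30.4% of the unstranded count in knock-in and 45.5% and 48.2% in WT. The strand columns of Sirt3 were similar in every library (244 and 289, and 222 and 211 reads in knock-in 1 and 2, against 255 and 257, and 266 and 275 reads in WT 1 and 2), as were those of Sirt1, so the strand columns did not tell the 3 genes apart. With single-strand counts the log2 fold change of Sirt3 was 0.0072 and 0.070. Psmd13 had 218 and 205 CPM in knock-in cells, against 203 and 238 CPM in WT cells, and Ric8a had 55.4 and 57.0 CPM in knock-in cells, against 54.6 and 79.1 CPM in WT cells. The part of these reads in the Sirt3 result was not tested.

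**Figure D3:**
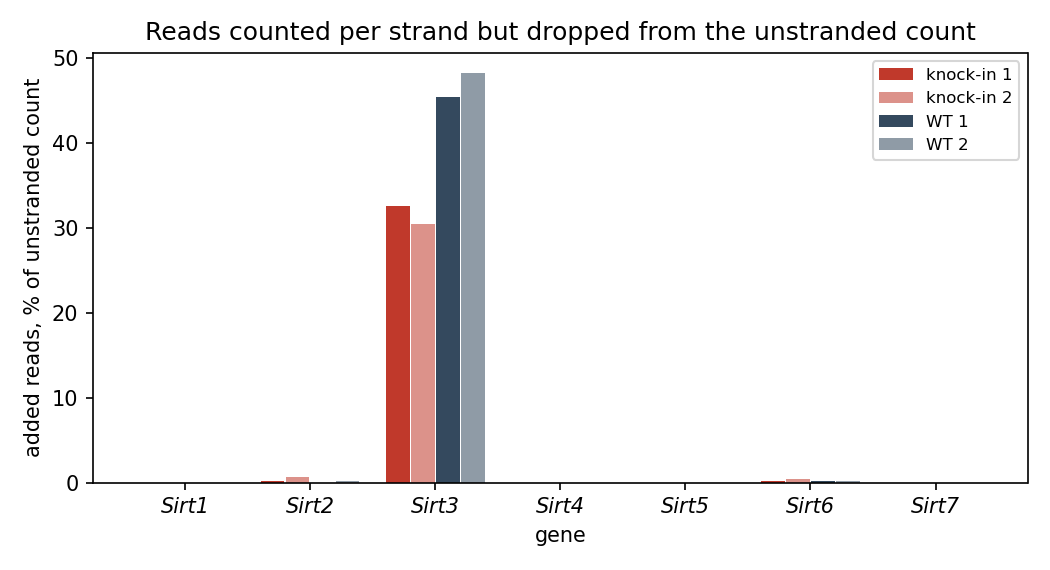
Reads that each sirtuin gene gained when counted on each strand separately, in percent of its unstranded count, with bars for knock-in 1 and 2 (red shades) and WT 1 and 2 (grey shades). Sirt3 gained 30.4% to 48.2%, more in both WT libraries than in either knock-in library, and the other 6 genes gained under 1%.

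Sirt4, a mitochondrial member with lipoamidase and ADP-ribosyltransferase activity, had unlike WT libraries (ENSMUSG00000029524, chromosome 5, 115478010 to 115484725). It had 110 and 104 counts in knock-in cells, against 205 and 100 counts in WT cells. In CPM that is 4.52 and 5.57 in knock-in cells, with exact 95% Poisson intervals of 3.71 to 5.44 and 4.55 to 6.75, against 7.45 and 4.54 in WT cells, with intervals of 6.46 to 8.54 and 3.69 to 5.52. The intervals of WT 1 and WT 2 did not meet, while that of WT 1 met the interval of knock-in 2; they cover counting error only. The log2 fold change stood at -0.26 (95% interval -0.92 to 0.39, SE 0.29, edgeR adjusted p = 0.736). It was -0.088 under the GC offset, 0.14 without WT 1 and -0.58 without WT 2.

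Sirt5, which removes succinyl, malonyl and glutaryl groups in mitochondria, was the lowest of the 7 (ENSMUSG00000054021, chromosome 13, 43365496 to 43395203). It had 3.55 and 3.801 TPM in knock-in cells, against 3.41 and 3.12 TPM in WT cells. In CPM it had 6.86 and 6.96 in knock-in and 5.96 and 5.86 in WT cells, so that both knock-in libraries lay above both WT libraries by a small margin. The exact 95% Poisson intervals met between the lines. They were 5.86 to 7.98 and 5.81 to 8.26 CPM in knock-in, against 5.08 to 6.94 and 4.89 to 6.96 CPM in WT cells. The fitted log2 fold change of 0.23 (95% interval -0.27 to 0.72, SE 0.22; edgeR adjusted p = 0.695) stayed between 0.18 and 0.34 in all 17 other fits, which reuse the same libraries.

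In the order of levels, Sirt1 and Sirt6 did not separate over the 4 libraries, nor did Sirt7 and Sirt3, with means of 9.59 and 8.77 TPM, or Sirt3 and Sirt4, which had a mean of 7.66 TPM. Sirt6 was 2.77 times Sirt2, Sirt2 was 1.88 times Sirt7 and Sirt4 was 2.21 times Sirt5 in mean TPM, with ranges that did not overlap. With the length of the longest coding transcript in place of all exons, Sirt3 (22.1 TPM) came above Sirt7 (19.4 TPM). Sirt7 then stood clear of Sirt4 (6.95 TPM), and Sirt4 no longer separated from Sirt5 (5.92 TPM). Single-strand counts, which hold reads dropped from the unstranded count, also put Sirt3 above Sirt7. The means were 10.1 against 7.99 TPM on the first strand, where the ranges did not overlap, and 10.4 against 8.20 TPM on the second. With only the exon bases shared with no other gene as length, Sirt3 and Sirt7 were nearly equal (9.70 and 9.58 TPM). The place of Sirt1, Sirt6 and Sirt2 at the top was the same with each length used.

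The other 6 sirtuins had smaller fitted differences than Sirt1, and the difference between genes was not tested. Of the 6, 0 passed an edgeR adjusted p of 0.05, against 0.0658% of all 15191 genes, 0.00658% as higher and 0.0592% as lower. In the same fit 0 of the 6 had an unadjusted p under 0.05, against 10.9% of all genes, so that a count of 0 among 6 is near the background, and 0 passed in DESeq2 or limma-voom. Their median log2 fold change was -0.044, against 0.00098 over all genes tested, with 2 of the 6 values above 0, as were 50.1% of all genes. The highest upper bound of their 95% intervals was 0.72, for Sirt5. It is not set against Sirt1, whose value chose the family and has an error of its own (SE 0.23). Only Sirt1 and Sirt5 had both knock-in libraries above both WT libraries in CPM, which held for 23.4% of all genes tested, and none had both below, which held for 23.9%; the groups did not overlap in either direction for 47.4% of all genes.

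Under the GC offset the 6 others had a median of 0.17 against 0.060 over all genes, 5 of the 6 values were above 0, and again 0 passed, against 2.00% of all genes, 0.711% as higher and 1.29% as lower. The highest upper bound was then 0.74, for Sirt5. Sirt1, Sirt3, Sirt5 and Sirt7 then had both knock-in libraries above both WT libraries, which held for 31.5% of all genes, and none had both below, which held for 18.6%. With 2 libraries in each line the smallest exact two-sided permutation p for a single gene is 0.333, so the tests rest on the spread shared over genes.

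**Figure D4:**
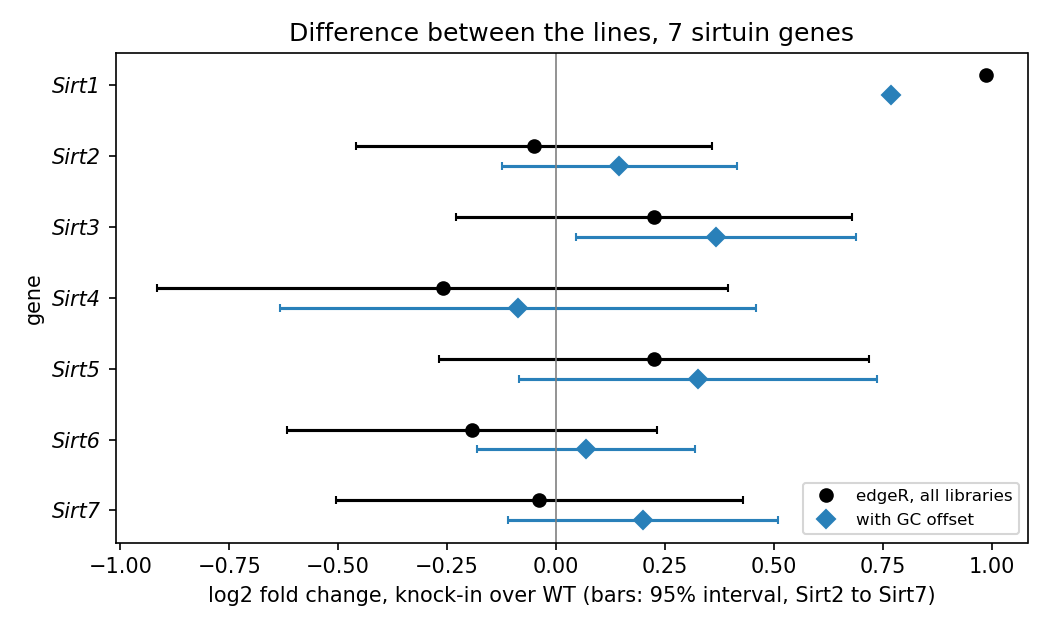
Log2 fold change of knock-in over WT for each sirtuin gene with its 95% interval, from the edgeR fit on all libraries (circles) and from the fit with the GC offset (diamonds); Sirt1, by which the family was chosen, is drawn without an interval. Sirt1 lies at 0.99 and 0.77, the other 6 genes lie between -0.26 and 0.37, and Sirt2, Sirt6 and Sirt7 are below 0 in the first fit and above 0 in the second.

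Genes whose profile over the 4 libraries was most like that of Sirt1 were found by the root mean square difference between centred log2 CPM values among 8951 genes of at least 10 CPM. The nearest were Aim2, a cytosolic DNA sensor (0.10), Vps26a, a retromer subunit (0.12), U2surp, a splicing factor (0.13), Lrrc34 (0.14) and Zfp367 (0.15). Aim2 had 19.1 and 20.2 CPM in knock-in cells, against 13.0 and 8.67 CPM in WT cells. Of the other sirtuins Sirt5 was the nearest, at 0.48, but it lay under 10 CPM and so outside that set. Within the set the nearest sirtuin was Sirt3, at 0.57. After the GC trend was removed only Aim2 remained among the 5 nearest, and likeness over 4 libraries in 2 groups is a weak measure.

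The genes beside Sirt1 on chromosome 10 were not alike. Herc4, a ubiquitin ligase gene that ends 1126 bases from the Sirt1 model, had 169 and 161 CPM in knock-in cells, against 144 and 91.1 CPM in WT cells. Both knock-in values were the higher ones, as for 23.4% of all genes tested. The log2 fold change of Herc4 was 0.49 (SE 0.21, edgeR adjusted p = 0.446), with 0.31 under the GC offset and 0.19 without WT 2. Dnajc12, a co-chaperone gene 738 bases from the other end of the GENCODE model, had 8.87 and 10.01 CPM in knock-in cells, against 9.59 and 8.72 CPM in WT cells, and its groups overlapped. The exons of Sirt1 share 65 bases with the antisense gene Gm16145, which had 0 counts in every library. Nfkbib shares 42 exon bases with Sirt2 and had 64.2 and 53.5 CPM in knock-in cells, against 53.1 and 62.9 CPM in WT cells. Mafg shares 124 exon bases with Sirt7 and had 93.7 CPM in both knock-in libraries, against 82.7 and 90.7 CPM in WT cells. Mir6936, which shares 54 exon bases with Sirt7, had 0 counts in every library.

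Genes linked to sirtuins were read from 6 lists with 78 distinct genes, of which 66 were tested. None passed in edgeR, DESeq2, limma-voom or edgeR with the GC offset. In edgeR 0.0658% of all genes passed, and 2.00% with the GC offset, so a count of 0 in lists this short is near the background. An edgeR unadjusted p under 0.05 was found for 4 of the 66, a smaller share than the 10.9% of all genes. Of these, Cd38 had a positive and Foxo3, Hic1 and Hdac7 negative log2 fold changes (Foxo3 and Hdac7 were picked out after their values were seen). Among the NAD synthesis and salvage genes 0 of 10 tested passed (median log2 fold change 0.064). The salvage enzyme gene Nampt had 187 and 181 CPM in knock-in cells, against 180 and 109 CPM in WT cells, which gave 0.35 in log2 fold change (SE 0.22; edgeR adjusted p = 0.544). The NAD kinase gene Nadk had a log2 fold change of 0.038 (SE 0.14) and Afmid, of the kynurenine route, -0.52 (SE 0.40). Under the GC offset Nampt stood at 0.10, Nadk at 0.18 and Afmid at -0.32. Haao, Kynu and Kmo, also of the kynurenine route from tryptophan to NAD, were each under 1 CPM in every library and were not tested.

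Of the other NAD consumers 0 of 9 tested passed (median 0.070). Parp1, the main poly(ADP-ribose) polymerase gene, was the most abundant, with 969 and 984 CPM in knock-in cells, against 945 and 1029 CPM in WT cells (log2 fold change -0.015, SE 0.14). The tankyrase gene Tnks2 had a value of 0.30 (SE 0.17), and Cd38, which encodes an NAD glycohydrolase, had 18.8 and 17.2 CPM in knock-in cells, against 13.5 and 10.5 CPM in WT cells (0.58, SE 0.20, edgeR adjusted p = 0.408). Both knock-in libraries were above both WT libraries for Cd38, as for 23.4% of all genes tested. Under the GC offset Parp1 stood at 0.13, Tnks2 at 0.12 and Cd38 at 0.40.

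Of the SIRT1 regulators 0 of 10 passed (median -0.027). Hic1, which encodes a repressor of Sirt1 transcription, was low, at 10 to 42 counts a library, with 0.41 and 0.75 CPM in knock-in cells, against 1.45 and 1.91 CPM in WT cells (-1.55 in log2 fold change, SE 0.46; edgeR adjusted p = 0.311). Trp53, on this list and among the targets, had 482 and 429 CPM in knock-in cells, against 398 and 476 CPM in WT cells (0.058, SE 0.16), and Usp22, whose product stabilises SIRT1, had a value of -0.071 (SE 0.14). The groups overlapped for Trp53. Under the GC offset the median of the regulators was 0.19, against 0.060 over all genes. Each of the other linked lists also had a higher median with the offset than without it, such as 0.18 for the nuclear and cytosolic targets.

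Of the nuclear and cytosolic targets 0 of 14 tested passed (median 0.018), with log2 fold changes of 0.19 (SE 0.14) for the mitotic checkpoint gene Bub1b and -0.47 (SE 0.39) for Nr1h3. Of the mitochondrial targets 0 of 14 tested passed (median 0.070), with 0.13 (SE 0.15) for the ADP/ATP carrier gene Slc25a5, 0.30 (SE 0.14) for the glutamate dehydrogenase gene Glud1 and -0.52 (SE 0.25) for the malonyl-CoA decarboxylase gene Mlycd. Of the zinc-dependent deacetylases, the other large family of lysine deacetylases, 0 of 11 passed (median -0.15), and 10 of the 11 values were below 0. Hdac1 had a value of -0.066 (SE 0.16), Hdac6 of -0.18 (SE 0.15) and Hdac9 of -0.84 (SE 0.54). With the GC offset the median of that list was 0.011, so its sign depended on the offset.

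**Figure D5:**
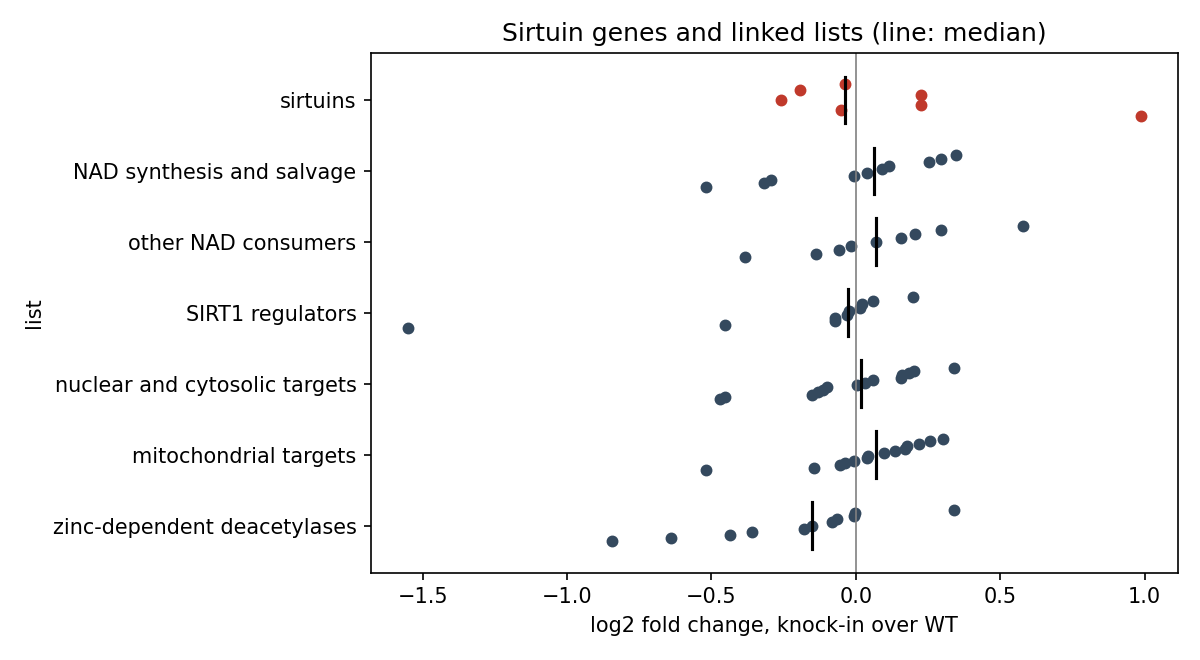
Log2 fold change of knock-in over WT for each tested gene of the sirtuin family (red) and of 6 linked lists (dark), with a line at the median of each. Sirt1, at 0.99, is the rightmost point, and the list medians lie between -0.15 and 0.070.

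The 8 listed fibroblast or feeder markers summed to 22.3 and 24.0 CPM in knock-in libraries, against 36.2 and 39.5 CPM in WT libraries, and all 4 that were tested had lower values in both knock-in libraries, as did 23.9% of all genes. None of these passed in the fit on all libraries, and Pdgfrb, with 8.17 and 9.10 CPM in knock-in and 16.6 and 15.1 CPM in WT libraries, passed with the GC offset (edgeR adjusted p = 0.0417), as did 1.29% of all genes in that direction. Dcn was at 0 in 3 of the 4 libraries, and Col3a1, Acta2 and Postn were under 1 CPM in each. Endoderm markers summed to 4.80 and 4.07 CPM in knock-in and 4.87 and 4.54 CPM in WT libraries, and trophoblast markers to 0.41 and 0.54 CPM in knock-in and 1.16 and 1.14 CPM in WT libraries. Neural markers summed to 162 and 149 CPM in knock-in and 149 and 235 CPM in WT libraries, most of it from Tubb3, with 133 and 122 CPM in knock-in and 117 and 205 CPM in WT libraries. Their part in the values of the sirtuins was not tested, and in bulk RNA fewer cells of a type and less RNA per cell cannot be told apart.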

How the data were processed

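Each deposited table held raw counts of reads per gene for 1 library, unstranded and for each strand; per the submitters' processing notes Trim Galore, STAR 2.5.3a and the build GRCm38 (mm10) were used. The release of the annotation is not given in the sources used here. Symbols, coordinates, exon lengths and transcript GC content came from GENCODE M21 on GRCm38, which matched 54809 of 54838 identifiers (the other 29 held 0.00107% of counts), and promoter windows from RefSeq. The 4 summary rows were kept out: unmapped reads made up 2.38% to 4.39%, multimapping 3.80% to 4.46%, reads in no feature 2.23% to 3.67% and ambiguous reads 5.96% to 6.38%. Counts were tested with edgeR 4.0.16 in R 4.3.3 (TMM, filterByExpr with a minimum count of 10, quasi-likelihood F test, genotype alone, Benjamini-Hochberg over all 15191 genes, threshold 0.05). The SE is the absolute log2 fold change over the square root of F. TPM was computed from counts and exon-union length. The GC offset is a natural spline (5 degrees of freedom) of each library's log2 CPM deviation (prior count 2) on GC content. The procedure was tested on simulated data. Other settings were DESeq2 1.42.0, its size factors, limma-voom (limma 3.58.1), other filters, left-out libraries, a replicate block, single-strand counts and other lengths; the crossed block and the GC offset with a WT library left out were chosen after seeing the data. The members and lists were chosen with earlier results of these data known. Named genes were the 7 members, Ep300, the genes beside Sirt1 or overlapping a member's exons, the 5 nearest in pattern to Sirt1, and from each list those past the threshold or otherwise the 2 with the highest CPM and the 1 with the largest fold change.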

Additional observations from a re-analysis of the deposited data

How the results depend on the processing

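The log2 fold change of Sirt1, given as a description, was 1.41 without WT 1, with a range of 0.65 to 1.41 over the left-out libraries. Sirt3 and Sirt5 stayed positive in all 17 other fits, which reuse the same libraries. Of 15191 genes 10 passed, against 354 with no low-count filter, 123 with DESeq2, 4 with limma-voom, 304 with the GC offset, 429 with the GC offset and replicate block, 16 to 5015 with a library left out, and 1315 and 653 with the GC offset without WT 1 and WT 2. Where a library was left out, the lone one of its line was assumed to vary like the other pair, but the pairs did not vary alike (chi-square per degree of freedom 5.71 in knock-in and 44.0 in WT), so without a WT library the spread is taken from the tighter pair and the 5015 and 711 calls, Sirt6 included, rest on a spread that may be too small. The count of sirtuins other than Sirt1 passing was 0 to 1 with a library left out (Sirt6, without WT 1) and 1 (Sirt3) with the GC offset without WT 2. The count of members whose groups did not overlap was 2, where the share over all genes was 47.4%, against 4 with the GC offset. It was 3 to 7 with a library left out, where 1 group holds 1 value and groups separate more readily. The share over all genes was not counted there, so these counts are not read as a result about the family. Of the linked genes 1 passed (Hic1) with no filter or the crossed block, 0 to 16 with a library left out, and 2 with the GC offset without WT 1 or without WT 2. Of the 5 genes nearest to Sirt1, 1 was kept with the GC offset.

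Same-numbered libraries do not share a stated source, and their deviations correlated at -0.12. The replicate block gave 197 genes, with 0 sirtuins other than Sirt1, and the crossed block, added after the data were seen, gave 509. Some signs turned, most of them of values near 0 but also those of Mlycd (-0.52), Sirt4 (-0.26), Sirt6 (-0.19) and Hdac6 (-0.18), and the cause was not tested. With the GC offset Sirt2, Sirt6, Sirt7, Parp1, Usp22, Hdac1 and Hdac6 were at 0.15, 0.069, 0.20, 0.13, 0.076, 0.041 and 0.011, and with the replicate block added at 0.15, 0.072, 0.20, 0.13, 0.076, 0.048 and 0.012. With the GC offset without WT 1, Sirt2, Sirt4, Sirt7, Parp1, Usp22 and Mlycd were at 0.058, 0.41, 0.10, 0.092, 0.061 and 0.032. Sirt6 was at -0.019 in that fit, against -0.40 without WT 1 and without the offset. With the GC offset without WT 2, Ep300, Sirt2, Sirt6, Sirt7, Parp1, Usp22, Hdac1 and Hdac6 were at 0.0072, 0.25, 0.17, 0.31, 0.18, 0.11, 0.22 and 0.072. In single-strand counts Sirt7 was at 0.016 and Nadk at -0.0082. With a library left out the ranges were -0.20 to 0.10 for Sirt2, -0.58 to 0.14 for Sirt4, -0.40 to 0.032 for Sirt6, -0.23 to 0.17 for Sirt7, -0.064 to 0.18 for Trp53, -0.026 to 0.093 for Nadk, -0.074 to 0.033 for Parp1 and -0.21 to 0.076 for Hdac1. Sirt4 and Sirt5 had 100 to 205 counts a library. For Sirt4 the exact Poisson intervals were 6.46 to 8.54 CPM in WT 1 and 3.69 to 5.52 CPM in WT 2. These intervals did not meet, so the spread between those libraries was wider than counting error. The part of depth in the precision of Sirt4 and Sirt5 was not tested.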
